A study of Mus musculus with 3 samples.

Results

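The 33 genes described here are markers of the phases of cell division: 15 genes of DNA replication (the S members), 15 genes of the passage from G2 into mitosis (the G2/M members) and 3 genes raised broadly in dividing cells. They were picked by symbol, all 33 were found among the 27998 genes of the matrices, and all 33 had UMIs in each of the 3 libraries. The libraries hold single-cell RNA from sorted myeloid cells of C57BL/6J mice carrying subcutaneous B16F10 melanoma, a mouse tumor line. Control blood and control tumor came from control mice that the labels call WT, and the third library came from the tumor of a Treg-depleted mouse that its label calls FoxP3 DTR, a name used for mice whose regulatory T (Treg) cells carry the diphtheria toxin receptor under Foxp3 control. All 3 groups carried the tumor. Blood was cleared of red cells and tumors were digested with enzymes, so handling differs with tissue. The labels give no age, toxin dose or animal count, although the design text speaks of control mice and of 1 depleted mouse, so genotype, depletion and the individual mouse cannot be told apart. In bulk sums over cells, fewer dividing cells and less RNA per cell cannot be told apart. Each group had 1 library, so no test between groups could be made. Intervals below are exact 95% intervals that cover counting error only, and the 2 comparisons share the control tumor library.

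During S phase the helicase of the MCM proteins opens DNA, the sliding clamp PCNA holds polymerases on the template, and enzymes such as ribonucleotide reductase and thymidylate synthase supply nucleotides. Transcription of many of these genes is driven by E2F factors at the start of S phase. Genes of G2 and mitosis, among them the mitotic cyclins, their kinase CDK1 and the spindle and kinetochore proteins, come on later, in many cases through promoter elements called the CHR and the CCAAT box. Monocytes in blood are mostly non-dividing, whereas macrophages, dendritic cells and immature granulocytes can divide.

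A barcode was kept as a cell when it had 1000 UMIs (RNA molecules counted once each) or more, 400 genes or more and no more than 10% of its UMIs from mitochondrial genes, which gave 5550 cells in control blood, 4443 in the control and 4434 in the Treg-depleted tumor. Medians were 3550, 6452 and 3820 UMIs per cell, so the control tumor was the deepest library. The kept libraries shared 27 to 36 barcodes pairwise, under 1% of their cells. Ptprc, the gene of CD45, stood at 292 to 837 CPM (UMIs of the gene per 1000000 UMIs of the library) and Itgam, the gene of CD11b, at 120 to 293 CPM. Foxp3 was at 0 in the blood and Treg-depleted libraries and at 0.0259 CPM in the control tumor, and the sort removed T cells, so it does not check the depletion. The 8 melanoma markers summed to 7.42, 28.6 and 66.5 CPM in the blood, the control tumor and the Treg-depleted tumor, with 0, 1 and 1 cells over the melanoma gate.

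Promoters of the members were searched for exact motif words in a window from 250 bases before to 50 bases after the start site, using RefSeq sequences on GRCm38.p6. The window was found for 13 of the 15 S genes, 12 of the 15 G2/M genes and 2 of the 3 broad genes. A gene was counted when any of its windows held the word. An E2F word (TTTGGCGC, TTTCCCGC or TTTCGCGC, on either strand) was present for 6 S genes (Mcm3, Mcm5, Mcm6, Mcm7, Cdc6 and Uhrf1) and for 1 G2/M gene (Cdk1). Of all 27025 genes with such a window, 2.12% held one. The CHR word TTTGAA, on either strand, was present for 8 G2/M genes (Top2a, Mki67, Cdk1, Ube2c, Cenpf, Ccnb2, Aurka and Plk1) and for 1 S gene (Mcm2), against 20.2% of all such genes. The CCAAT word, on either strand, was present for 10 G2/M and 9 S genes, against 41.1% of all such genes. Words of different kinds overlapped in 1 member, Mcm7, where an E2F and a CCAAT word shared 1 base. The 250 bases upstream of 4 genes are shown because they carry the words that set the S list apart from the G2/M list. Capitals mark E2F and CHR words. All are GRCm38.p6, written 5′ to 3′ in the direction of the gene: Mcm5 at chr8:75109259-75109508 (plus strand), Mcm6 at chr1:128359706-128359955 (minus strand), Cdk1 at chr10:69352913-69353162 (minus strand) and Top2a at chr11:99024190-99024439 (minus strand).
Mcm5: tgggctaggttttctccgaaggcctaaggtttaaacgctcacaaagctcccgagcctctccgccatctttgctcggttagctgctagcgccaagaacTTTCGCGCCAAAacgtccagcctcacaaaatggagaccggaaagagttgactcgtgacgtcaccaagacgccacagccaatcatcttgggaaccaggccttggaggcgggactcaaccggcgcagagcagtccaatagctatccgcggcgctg
Mcm6: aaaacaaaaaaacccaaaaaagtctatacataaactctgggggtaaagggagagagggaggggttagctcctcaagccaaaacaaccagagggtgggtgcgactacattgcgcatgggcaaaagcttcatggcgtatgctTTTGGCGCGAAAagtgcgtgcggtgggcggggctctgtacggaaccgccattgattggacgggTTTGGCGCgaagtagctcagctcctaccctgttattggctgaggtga
Cdk1: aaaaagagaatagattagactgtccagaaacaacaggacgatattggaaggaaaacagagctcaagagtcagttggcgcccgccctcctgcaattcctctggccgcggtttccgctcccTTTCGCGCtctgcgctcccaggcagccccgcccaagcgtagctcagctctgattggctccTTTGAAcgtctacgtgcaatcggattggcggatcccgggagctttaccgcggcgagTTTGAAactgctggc
Top2a: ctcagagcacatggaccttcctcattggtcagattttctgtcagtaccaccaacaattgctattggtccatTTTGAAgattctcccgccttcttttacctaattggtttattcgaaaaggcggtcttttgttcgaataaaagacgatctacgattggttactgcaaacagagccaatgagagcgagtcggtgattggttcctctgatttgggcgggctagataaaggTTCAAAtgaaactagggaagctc

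The Mcm5 word and the first Mcm6 word are 2 overlapping E2F words on opposite strands. Cdk1 held both kinds, with the E2F word upstream of its 2 CHR words. Top2a held 1 CHR word on each strand. These matches are descriptions of sequence and no binding was measured in these libraries.

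Summed over all kept cells, the S members stood at 140 CPM (95% interval 135 to 145) in control blood, 272 CPM (266 to 277) in control tumor and 217 CPM (210 to 223) in the Treg-depleted tumor. The G2/M members stood at 50.6 CPM (47.6 to 53.9), 122 CPM (119 to 126) and 61.3 CPM (57.9 to 64.9). Both lists were lowest in blood and highest in the control tumor. The 3 broad genes went another way, with 665, 543 and 482 CPM. The barcodes of at most 100 UMIs, taken as free RNA, held the G2/M members at 58.5, 132 and 68.8 CPM, close to the level of the cells of the same library.

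**Figure D1:**
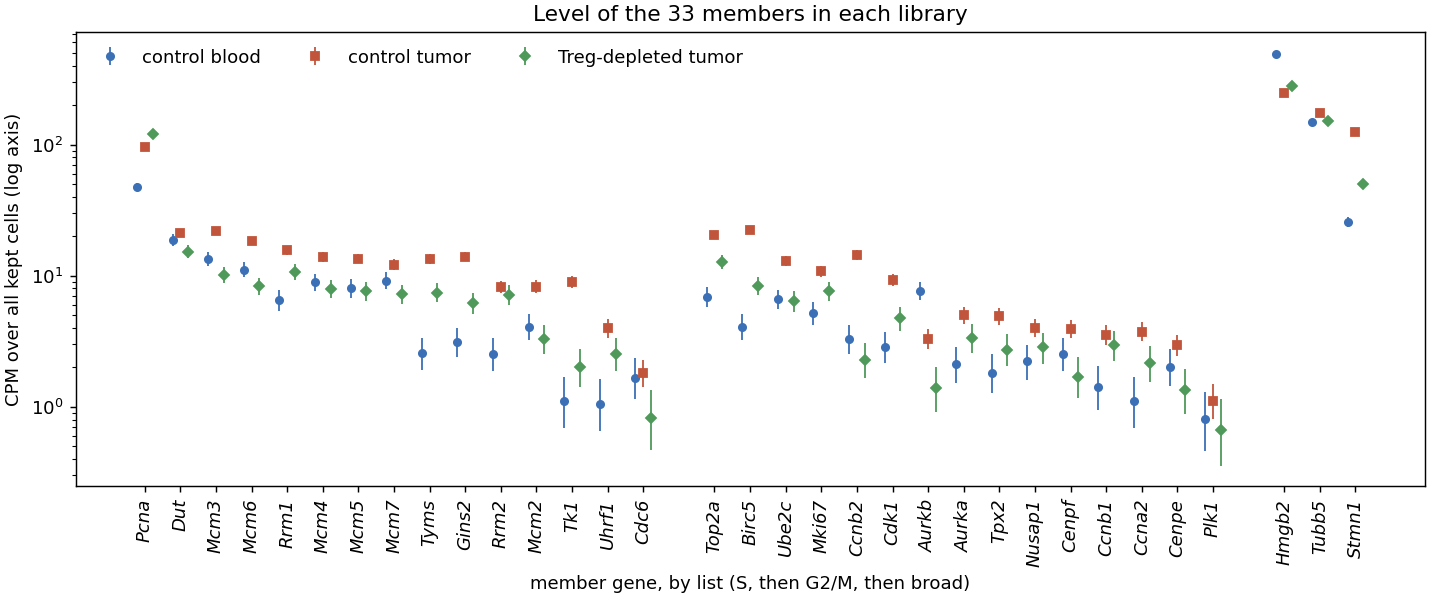
Level of each of the 33 members in CPM (log axis) over all kept cells of control blood (circles), control tumor (squares) and Treg-depleted tumor (diamonds), with exact 95% Poisson intervals. Genes are ordered by mean level within the S, G2/M and broad lists; Pcna was highest in the Treg-depleted tumor at 120 CPM, whereas Aurkb was highest in blood at 7.67 CPM.

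Pcna, which encodes the clamp, was the most abundant S member in every library. It counted 47.9 CPM (44.9 to 51.0) in control blood, 95.8 CPM (92.7 to 98.9) in control tumor and 120 CPM (115 to 125) in the Treg-depleted tumor. It was the only member of the S and G2/M lists that was higher in the Treg-depleted than in the control tumor. It made up enough of the S list to decide its sum: without Pcna the S members summed to 92.1, 176 and 96.6 CPM, so that the Treg-depleted tumor lay near blood.

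The MCM genes encode the 6 subunits of the replicative helicase, and all 6 were highest in the control tumor. Mcm3 stood at 13.4 CPM (11.9 to 15.1) in control blood, 22.0 (20.6 to 23.6) in control tumor and 10.1 (8.74 to 11.6) in the Treg-depleted tumor. Mcm6 stood at 11.1 (9.73 to 12.7), 18.5 (17.2 to 19.9) and 8.30 CPM (7.07 to 9.69). Both were lower in the Treg-depleted tumor than in blood. Mcm4 stood at 8.98 (7.71 to 10.4), 13.9 (12.8 to 15.2) and 7.99 CPM (6.78 to 9.35), Mcm5 at 8.02, 13.5 and 7.63 CPM, Mcm7 at 9.18, 12.1 and 7.22 CPM and Mcm2 at 4.09, 8.27 and 3.30 CPM, in the same order of libraries. For Mcm2, Mcm4, Mcm5 and Mcm7 the intervals of blood and Treg-depleted tumor overlapped. Gins2, a subunit of the GINS complex that works with this helicase, stood at 3.13, 14.0 and 6.19 CPM. Cdc6, which loads the helicase, stayed low at 1.66, 1.81 and 0.825 CPM.

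The 5 genes of nucleotide supply were also highest in the control tumor. Dut, which removes dUTP, stood at 18.7 CPM (16.9 to 20.7) in blood, 21.3 (19.9 to 22.8) in control tumor and 15.3 (13.6 to 17.2) in the Treg-depleted tumor. Rrm1, the large subunit of ribonucleotide reductase, stood at 6.51 (5.43 to 7.73), 15.7 (14.5 to 17.0) and 10.6 CPM (9.22 to 12.2). Rrm2, its small subunit, stood at 2.52, 8.22 and 7.17 CPM, and was the S gene with the smallest fold between the 2 tumors. Thymidylate synthase (Tyms) stood at 2.57, 13.4 and 7.43 CPM. Thymidine kinase (Tk1) stood at 1.11, 9.02 and 2.01 CPM, so that its Treg-depleted level was nearer to blood. Uhrf1, which links replication to DNA methylation, stood at 1.06, 3.98 and 2.53 CPM.

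Among the G2/M members, Top2a (topoisomerase II alpha, which untangles chromosomes) stood at 6.91 CPM (5.80 to 8.17) in blood, 20.4 (19.0 to 21.9) in control tumor and 12.7 (11.2 to 14.4) in the Treg-depleted tumor. Birc5, or survivin, a subunit of the chromosomal passenger complex, stood at 4.09 (3.24 to 5.08), 22.2 (20.7 to 23.7) and 8.41 CPM (7.16 to 9.80). Both were lowest in blood. Ube2c, which serves the anaphase-promoting complex, stood at 6.61 (5.53 to 7.84), 12.9 (11.8 to 14.1) and 6.39 CPM (5.32 to 7.62), so blood and Treg-depleted tumor did not differ beyond counting error. Mki67, the gene of the Ki-67 antigen, stood at 5.20 (4.24 to 6.30), 10.8 (9.77 to 11.9) and 7.63 CPM (6.45 to 8.97). Cdk1, the mitotic kinase, stood at 2.88 (2.18 to 3.73), 9.33 (8.39 to 10.3) and 4.74 CPM (3.82 to 5.82). For all 5 of these genes the control tumor lay above both other libraries.

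The mitotic cyclins did not share 1 pattern. Ccnb2 stood at 3.28 CPM (2.53 to 4.18) in blood, 14.3 (13.2 to 15.6) in control tumor and 2.27 (1.65 to 3.05) in the Treg-depleted tumor. Ccnb1 stood at 1.41, 3.54 and 2.94 CPM. Ccnb2 was therefore the more abundant of this pair in blood and control tumor, whereas in the Treg-depleted tumor their intervals overlapped (2.23 to 3.81 for Ccnb1). Ccna2 stood at 1.11, 3.75 and 2.17 CPM. Of the spindle and kinetochore genes, Tpx2 stood at 1.82, 4.89 and 2.73 CPM, Nusap1 at 2.22, 4.01 and 2.84 CPM, Cenpf at 2.52, 3.96 and 1.70 CPM and Cenpe at 2.02, 2.95 and 1.34 CPM. The mitotic kinases Aurka and Plk1 stood at 2.12, 4.99 and 3.35 CPM and at 0.807, 1.11 and 0.670 CPM. Aurkb, the kinase of the passenger complex that Birc5 belongs to, stood at 7.67, 3.31 and 1.39 CPM and was the only one of the 30 phase members that was highest in blood.

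The broad genes are expressed outside division as well. Hmgb2, a chromatin protein, stood at 490 CPM (480 to 500) in blood, 246 (241 to 251) in control tumor and 282 (275 to 290) in the Treg-depleted tumor. Tubb5, a beta tubulin, stood at 149 (143 to 154), 173 (169 to 177) and 151 CPM (145 to 156). Stmn1, or stathmin, which destabilises microtubules, stood at 25.7 (23.5 to 28.1), 124 (121 to 128) and 49.8 CPM (46.7 to 53.1) and was more than 2-fold higher in the control tumor than in either other library. Hmgb2 and Tubb5 have near-identical relatives, so the upstream assignment of reads between relatives enters their counts.

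The S over G2/M ratio, the summed S UMIs divided by the summed G2/M UMIs, was 2.76 (2.57 to 2.97) in blood, 2.22 (2.14 to 2.30) in control tumor and 3.53 (3.31 to 3.77) in the Treg-depleted tumor. It was lowest in the control tumor. Without Pcna the ratios were 1.82 (1.68 to 1.97), 1.44 (1.38 to 1.49) and 1.58 (1.46 to 1.70), and blood was then the highest. Over all kept cells, the place of the Treg-depleted tumor above blood thus rested on Pcna. The macrophage gate, the classical monocyte gate and cells below both gates are defined below. Of these, only cells below both gates had separate tumor intervals without Pcna. In cells below both gates the Treg-depleted ratio was 1.81 against 1.49 in the control tumor, and the intervals did not overlap. In the macrophage gate it was 1.90 (1.49 to 2.44) against 1.44 (1.37 to 1.51), and the intervals overlapped. In the classical monocyte gate it was lower, 2.04 against 2.20, with overlapping intervals. Smaller gates went both ways.

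Comparing control tumor with control blood asks how the division genes of myeloid cells differ between the circulation and the tumor. Replication and mitosis genes were both higher in the tumor: the summed S members by 0.96 on the log2 scale (0.90 to 1.02) and the summed G2/M members by 1.27 (1.17 to 1.37). At least 2-fold higher were 8 of 15 S members (Mcm2, Pcna, Tyms, Rrm1, Rrm2, Tk1, Uhrf1 and Gins2) and 9 of 15 G2/M members (Top2a, Mki67, Birc5, Cdk1, Ccnb1, Ccnb2, Ccna2, Aurka and Tpx2). Of all 11659 genes with at least 20 UMIs in either library, 15% passed the 2-fold limit upward and 22.8% downward. No S member and 1 G2/M member, Aurkb, was at least 2-fold lower. The median log2 ratio was 1.00 over the S members and 1.24 over the G2/M members, against -0.29 over all genes tested. Scaled so that this median was 0, the summed S and G2/M ratios were 1.25 and 1.56.

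The largest tumor over blood ratios among the members were those of Tk1, with a log2 ratio of 3.02 (2.40 to 3.72), Birc5 with 2.44 (2.11 to 2.79) and Tyms with 2.39 (1.97 to 2.83). The MCM genes moved less, from 0.40 (0.15 to 0.66) for Mcm7 to 1.02 (0.66 to 1.39) for Mcm2. For Cdc6 the log2 ratio was 0.12 (-0.50 to 0.76) and for Plk1 0.46 (-0.40 to 1.39), neither of which could be told from 0 at this depth. Stmn1 was 4.82-fold higher in the tumor, while Hmgb2 stood at 0.501 times its blood level.

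**Figure D2:**
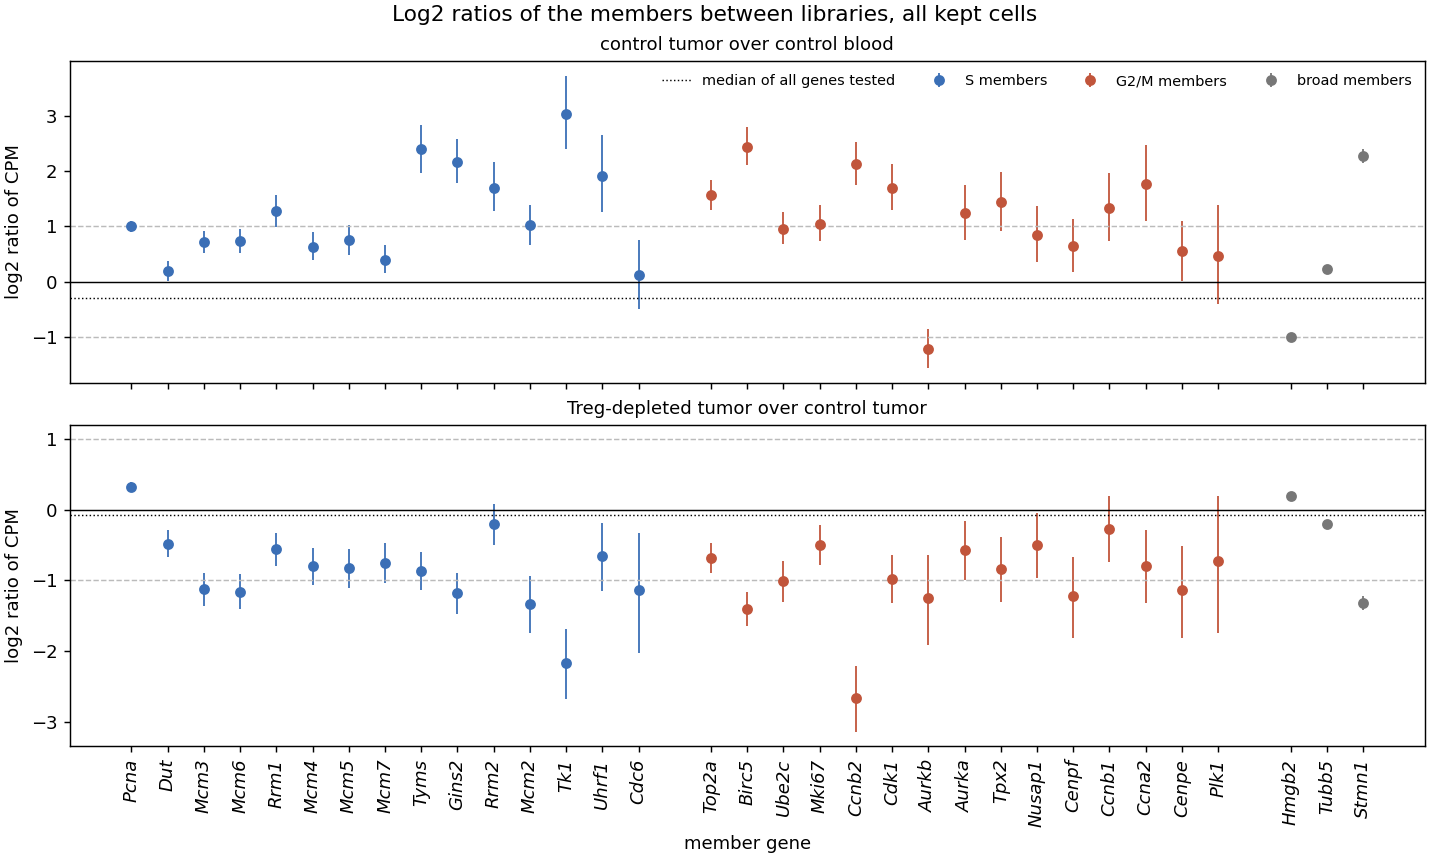
Log2 ratio of CPM for each member in control tumor over control blood (upper panel) and in Treg-depleted over control tumor (lower panel), with exact 95% counting intervals; blue marks S, red G2/M and grey broad members, the dotted line the median of all genes tested and the dashed lines 2-fold. In the upper panel Aurkb (-1.21) and Hmgb2 (0.501 times the blood level) lie below 0, and in the lower panel Ccnb2 (-2.66) lies lowest while Pcna (0.32) and Hmgb2 (0.20) lie above 0.

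Comparing the Treg-depleted with the control tumor asks how the division genes of tumor myeloid cells differ after the loss of regulatory T cells. Mitosis genes were lower in the Treg-depleted tumor, with a log2 ratio of -1.0 (-1.09 to -0.91) for the summed G2/M members. The S members were lower by less in sum (-0.33, -0.38 to -0.28), but by -0.86 (-0.94 to -0.79) without Pcna. At least 2-fold lower were 6 of 15 S members (Mcm2, Mcm3, Mcm6, Tk1, Gins2 and Cdc6) and 6 of 15 G2/M members (Birc5, Ube2c, Cenpf, Cenpe, Ccnb2 and Aurkb), and none of the 30 was at least 2-fold higher. Of all 11383 genes tested, 8.63% passed 2-fold downward and 7.63% upward. Below 0 were 14 of 15 S and 15 of 15 G2/M members, with median log2 ratios of -0.82 and -0.84 against -0.07 over all genes tested.

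Ccnb2 had the lowest ratio, -2.66 (-3.14 to -2.21), followed by Tk1 with -2.17 (-2.68 to -1.69) and Birc5 with -1.40 (-1.65 to -1.16). The 6 MCM genes together gave -0.99 (-1.10 to -0.88), ranging from -0.75 (-1.03 to -0.47) for Mcm7 to -1.33 (-1.74 to -0.93) for Mcm2. For Rrm2 (-0.20, -0.50 to 0.09), Ccnb1 (-0.27, -0.74 to 0.19) and Plk1 (-0.73, -1.75 to 0.19) the interval held 0. Stmn1 followed the mitosis genes with -1.32 (-1.42 to -1.22). The libraries also differed in make-up: macrophage-gated cells, defined next, made up 35.5% of the control library and 9.18% of the Treg-depleted one, so values within gates follow.

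Cells were placed in gates by the summed UMIs of marker genes, with thresholds set after the data had been seen. A gate is named for its marker list and is not a sorted population, and cells over neither the classical monocyte nor the macrophage threshold, nor any other, are called below both gates. In the control tumor the macrophage gate (C1qa, Mrc1, Trem2 and others, 1578 cells) held the G2/M members at 159 CPM (153 to 165) and the S members at 336 CPM (328 to 345). The classical monocyte gate (Ly6c2, Ccr2 and others, 1195 cells) held them at 18.5 CPM (15.3 to 22.0) and 113 CPM (105 to 121). In this library the mitosis genes were higher in the macrophage gate than in the monocyte gate. Neutrophil-gated cells, a mature and mostly non-dividing type, gave a background of 14.2 CPM (6.48 to 26.9) of G2/M members in blood and 3.19 CPM (0.0809 to 17.8) in the Treg-depleted tumor, and plasmacytoid DC-gated cells gave 12.3 CPM (3.98 to 28.6) in the control tumor. The classical monocyte level of the control tumor lay within the intervals of 2 of these 3 backgrounds and just above the third.

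Within the macrophage gate the G2/M members were lower in the Treg-depleted tumor, 57.2 CPM (46.6 to 69.5) over 407 cells against 159 CPM, a log2 ratio of -1.47 (-1.77 to -1.19). The S members gave -0.45 (-0.59 to -0.31), and -1.07 (-1.28 to -0.86) without Pcna. With 2 times the marker UMIs required, the G2/M ratio of this gate was -1.02. The Treg-depleted side then held only 71 cells and 26 G2/M UMIs, at 86.8 CPM (56.7 to 127). The control side held 1206 cells at 176 CPM (170 to 183). At least 2-fold lower were 11 of 15 G2/M and 8 of 15 S members, and none at least 2-fold higher, with 11.6% of all genes tested in this gate lower and 8.63% higher, but the Treg-depleted macrophage gate held only 1766047 UMIs against 18961358, so that members could enter the count through their control tumor level alone. Birc5 stood at 12.5 against 31.8 CPM, Top2a at 8.49 against 23.2 CPM, Ccnb2 at 4.53 against 21.2 CPM and Rrm2 at 1.13 against 11.2 CPM. Top2a, Ccnb2 and Rrm2 had under 20 UMIs in the Treg-depleted gate. Pcna again stood the other way, at 138 against 108 CPM, and Cenpf and Plk1 had no UMI in the Treg-depleted gate. The median depth of these cells was 3929 against 10171 UMIs, and the part of depth was not tested.

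Cells below both gates were 2134 in the Treg-depleted and 979 in the control tumor, and their make-up differed: of the 10 leading genes Mgl2, Ccl17 and Plet1 were shared, while Mmp12, Cxcl1 and Dcstamp led in the Treg-depleted tumor and H2-DMb2, Il1r2 and H2-Oa were among the first in the control tumor. Their G2/M members stood at 65.6 CPM (60.3 to 71.2) against 121 CPM (113 to 129), a log2 ratio of -0.88 (-1.03 to -0.73), and their S members gave -0.18 (-0.26 to -0.09), or -0.60 (-0.72 to -0.48) without Pcna. Of 13 G2/M members with at least 20 UMIs, 5 were at least 2-fold lower (Birc5, Ube2c, Nusap1, Ccnb2 and Aurkb), and none higher, with 6.48% of all genes tested lower and 10.9% higher. Of 14 such S members, Tk1 was lower. Some of the lower members, among them Ccnb2 and Aurkb, had under 20 UMIs in the Treg-depleted cells. They entered the count through their control tumor level alone. The B-type cyclins parted here: Ccnb2 stood at 1.62 against 10.9 CPM and Ccnb1 at 4.74 against 2.57 CPM, with log2 ratios of -2.75 (-3.68 to -1.93) and 0.88 (0.08 to 1.73).

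The classical monocyte gate went the other way between the tumors. Its G2/M members stood at 31.2 CPM (27.2 to 35.6) over 1451 cells of the Treg-depleted tumor against 18.5 CPM, a log2 ratio of 0.76 (0.43 to 1.09), and its S members at 172 (163 to 182) against 113 CPM, a log2 ratio of 0.61 (0.48 to 0.74). At least 2-fold higher were 3 of 11 S members with at least 20 UMIs (Dut, Rrm2 and Mcm7) and 1 of 4 such G2/M members (Top2a), with 9.75% of all genes tested, and none was at least 2-fold lower, with 5.08% of all genes. Rrm2, Mcm7 and Top2a had under 20 UMIs in the control gate and entered through the Treg-depleted library, where they were higher. Dut stood at 12.5 against 3.18 CPM and Top2a at 6.75 against 2.87 CPM. The G2/M difference depended on the gate: with 2 times the marker UMIs required, 943 and 748 cells held 19.8 CPM (15.9 to 24.3) and 20.2 CPM (15.9 to 25.3), a log2 ratio of -0.03 (-0.49 to 0.43), while the S members gave 0.35 (0.17 to 0.54). With 10% free RNA subtracted the G2/M ratio was 1.35.

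**Figure D3:**
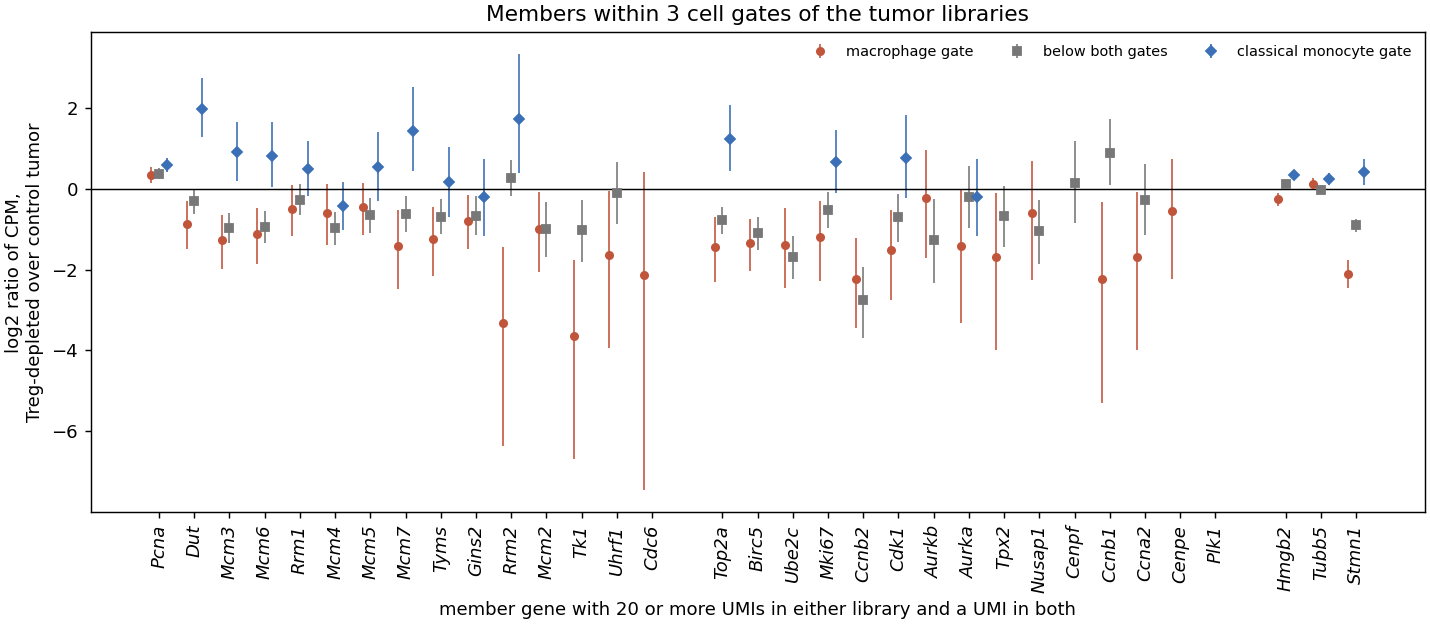
Log2 ratio of CPM, Treg-depleted over control tumor, for each member with at least 20 UMIs in either library and a UMI in both, within the macrophage gate (red circles), below both gates (grey squares) and within the classical monocyte gate (blue diamonds), with exact 95% intervals. Pcna lies above 0 in all 3 groups, Rrm2 spans from -3.31 in the macrophage gate to 1.73 in the classical monocyte gate, and Ccnb2 lies at -2.23 and -2.75 in the macrophage gate and below both gates. Each of these Rrm2 and Ccnb2 values rests on under 20 UMIs in the library where the gene was lower.

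Between control tumor and control blood the classical monocyte gate also ran against the whole library. Its G2/M members were lower in the tumor, 18.5 CPM against 48.0 CPM (44.3 to 52.0), a log2 ratio of -1.38 (-1.67 to -1.10), and its S members gave 0.01 (-0.12 to 0.14), but -0.71 (-0.91 to -0.51) without Pcna. Of 13 G2/M members with at least 20 UMIs, 8 were at least 2-fold lower in the tumor (Birc5, Ube2c, Cenpf, Cenpe, Nusap1, Ccnb1, Ccnb2 and Aurkb) and none higher, with 28.6% of all genes tested lower and 11.3% higher. All 8 had under 20 UMIs in the tumor gate, so they entered the count through their blood level alone. Ube2c stood at 0.454 against 6.28 CPM and Birc5 at 1.51 against 4.45 CPM. Of 11 such S members, 4 were at least 2-fold lower (Mcm3, Mcm5, Mcm7 and Dut) and Tyms was higher, 3.48 against 1.59 CPM. These S counts lay near the shares of all genes. The median log2 ratio was -0.18 over the S and -1.56 over the G2/M members tested, against -0.46 over all genes tested in this gate. In blood, however, 6 of the 3142 cells of this gate held 50% of its 604 G2/M UMIs, and in the tumor 36 of 1195 cells held 50% of 122. With 10% free RNA subtracted the G2/M ratio of this gate was -2.14. In all, 232 of the 3142 blood cells of this gate had any G2/M UMI.

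The dendritic cell gates differed widely. The cDC1 gate (Xcr1, Clec9a and others), which marks conventional dendritic cells of type 1, held the G2/M members at 442 CPM (397 to 491) over 71 cells of the control tumor, the highest level of any gate with at least 50 cells in that library. Top2a stood there at 97.1 CPM (76.5 to 122), Birc5 at 66.4 CPM and Ube2c at 61.3 CPM. The G2/M members stood at 1083 CPM over 22 cells of the Treg-depleted tumor and at 595 CPM over 15 cells of blood, but 1 cell held 123 of the 228 UMIs and 1 cell held 62 of the 64 UMIs respectively. Without the cell with the most G2/M UMIs the levels were 333, 577 and 22.1 CPM in control tumor, Treg-depleted tumor and blood. The S over G2/M ratio in this gate was 1.14 (0.988 to 1.33) in control tumor and 0.443 (0.347 to 0.562) in the Treg-depleted tumor, below that of the whole libraries. The Treg-depleted ratio includes the cell with 123 of the 228 G2/M UMIs, and it was not computed without that cell. The cDC2 gate (Cd209a, Clec10a and others) held 26.7 CPM (18.7 to 36.9) of G2/M members in blood and 138 CPM (116 to 163) in control tumor, where 2 cells held 50% of 137 UMIs and the level without the highest cell was 93.2 CPM. The gate of CCR7 dendritic cells held 91.2 CPM (74.3 to 111) in control tumor and 74.9 CPM (50.9 to 106) in the Treg-depleted tumor.

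In blood the highest G2/M level of a gate with at least 50 cells was that of the granulocyte progenitor gate, a list of granule genes such as Mpo, Elane and Ltf, with 451 CPM (366 to 549) over 66 cells. The leading genes of this gate held Ngp, Camp, Ltf and Lcn2 of its list, with Ly6g, S100a8 and S100a9, but not Mpo or Elane. Its name is therefore that of the list and not of a cell stage. Mki67 stood there at 86.5 CPM (52.1 to 135) and Hmgb2 at 1379 CPM (1228 to 1543). Its 99 G2/M UMIs came from 8 cells, and without the cell with the most the level was 310 CPM. The B cell gate held 236 CPM over 89 cells, but 66 of its 74 G2/M UMIs were in 1 cell and the level without it was 26.8 CPM. Nonclassical monocyte-gated cells of blood, 1132 in number, held 16.2 CPM (12.0 to 21.3), near the neutrophil background.

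**Figure D4:**
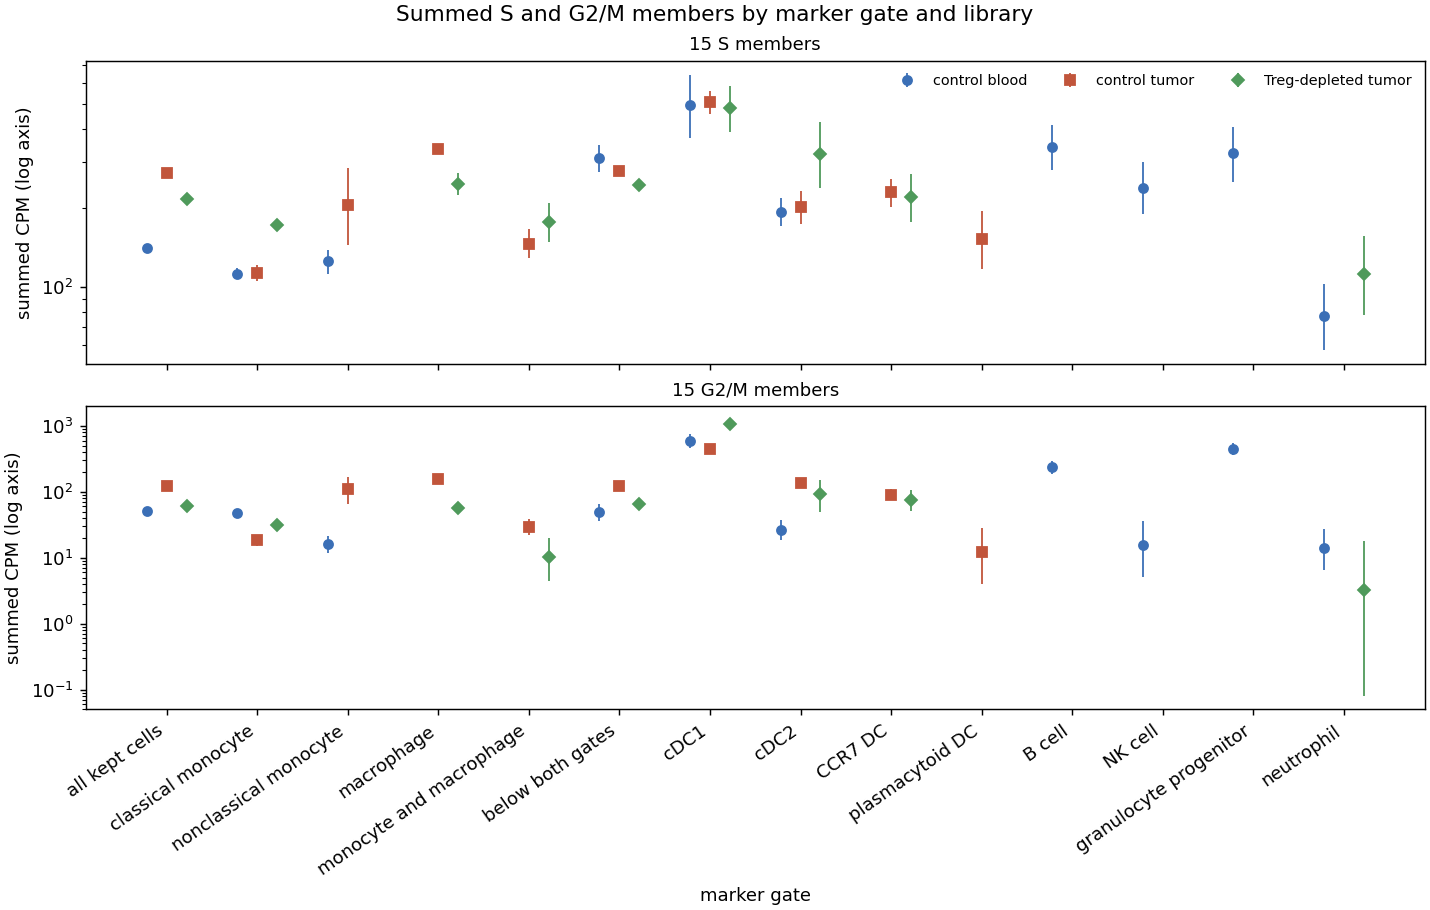
Summed CPM (log axes) of the 15 S members (upper panel) and the 15 G2/M members (lower panel) by marker gate in control blood (circles), control tumor (squares) and Treg-depleted tumor (diamonds), with exact 95% Poisson intervals; gates of under 50 cells are shown only for cDC1 and cDC2. The G2/M members range from 3.19 CPM in neutrophil-gated to 1083 CPM in cDC1-gated cells of the Treg-depleted tumor, a wider span than that of the S members. The low end rests on 1 UMI in 146 cells (0.0809 to 17.8 CPM). The high end rests on 22 cells, of which 1 held 123 of 228 UMIs, and was 577 CPM without that cell.

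Fewer cells held 50% of the G2/M UMIs than of the S UMIs. The fewest cells that held 50% of the G2/M UMIs were 10 of 5550 in blood, 80 of 4443 in control tumor and 26 of 4434 in the Treg-depleted tumor. For the S UMIs these numbers were 437, 275 and 348, and without Pcna 291, 167 and 73. The G2/M list also had fewer UMIs, 1004 against 2775 in blood, 4734 against 10507 in control tumor and 1189 against 4199 after depletion. The part of these totals in the numbers of cells was not tested. Cells with at least 3 UMIs of the other G2/M members held a median over the 15 G2/M genes of 69.3%, 77.3% and 70.5% of a gene's UMIs in the 3 libraries, and a median over the 15 S genes of 11.3%, 45.0% and 35.4%. For the S genes these were 28 cells in blood, 317 in the control and 78 in the Treg-depleted tumor. They held 1.00% of all UMIs in blood, 3.58% in the Treg-depleted tumor and 15.8% in the control tumor, where deeper cells pass the count of 3 more readily, so the shares compare genes within a library and not libraries.

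Within each library the S genes ranged widely in this share. Rrm2 had 66.0%, 80.2% and 77.0% of its UMIs in such cells, Tk1 45.5%, 71.3% and 69.2% and Tyms 39.2%, 58.7% and 59.7%. Pcna had 3.06%, 22.7% and 7.78%, and Mcm4 had 2.81%, 31.0% and 13.5%. The small subunit of ribonucleotide reductase thus followed the mitosis genes, and the clamp was spread over cells without them. In blood the contrast was between 166 CPM of Rrm2 in those cells and 0.866 CPM in the rest, and between 146 and 46.9 CPM for Pcna. Among the broad genes Stmn1 had 51.4%, 64.1% and 53.1%, whereas Hmgb2 and Tubb5 had at most 36.6% in any library.

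Most G2/M genes were over 50%: 13 of 15 in blood, 14 of 15 in control tumor and 11 of 15 in the Treg-depleted tumor. Ccna2 was the most concentrated in blood, with all 22 UMIs in those cells, and in control tumor, with 91.7%. Aurka was diffuse in every library, at 21.4%, 26.9% and 15.4%. In the Treg-depleted tumor Mki67 (37.8%), Cenpf (33.3%) and Ccnb1 (28.1%) were also below 50%.

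Aurkb differed between libraries in where it lay. In blood 9.87% (5.63 to 15.8) of its UMIs were in cells with at least 3 other G2/M UMIs, against 77.3% (69.1 to 84.3) in the control and 74.1% (53.7 to 88.9) in the Treg-depleted tumor. Cells without any other G2/M UMI held 130 of its 152 UMIs in blood, spread over 129 cells with at most 2 each, and 18 of 128 in the control and 6 of 27 in the Treg-depleted tumor. In classical monocyte-gated cells without another G2/M UMI it stood at 7.96 CPM (6.44 to 9.73) in blood, 0.169 CPM (0.00428 to 0.941) in control tumor and 0 of 4 UMIs in the Treg-depleted tumor. Most blood UMIs of Aurkb thus lay outside the cells that carried other mitosis genes. Free RNA of blood held Aurkb at 10.0 CPM, and its part was not tested.

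**Figure D5:**
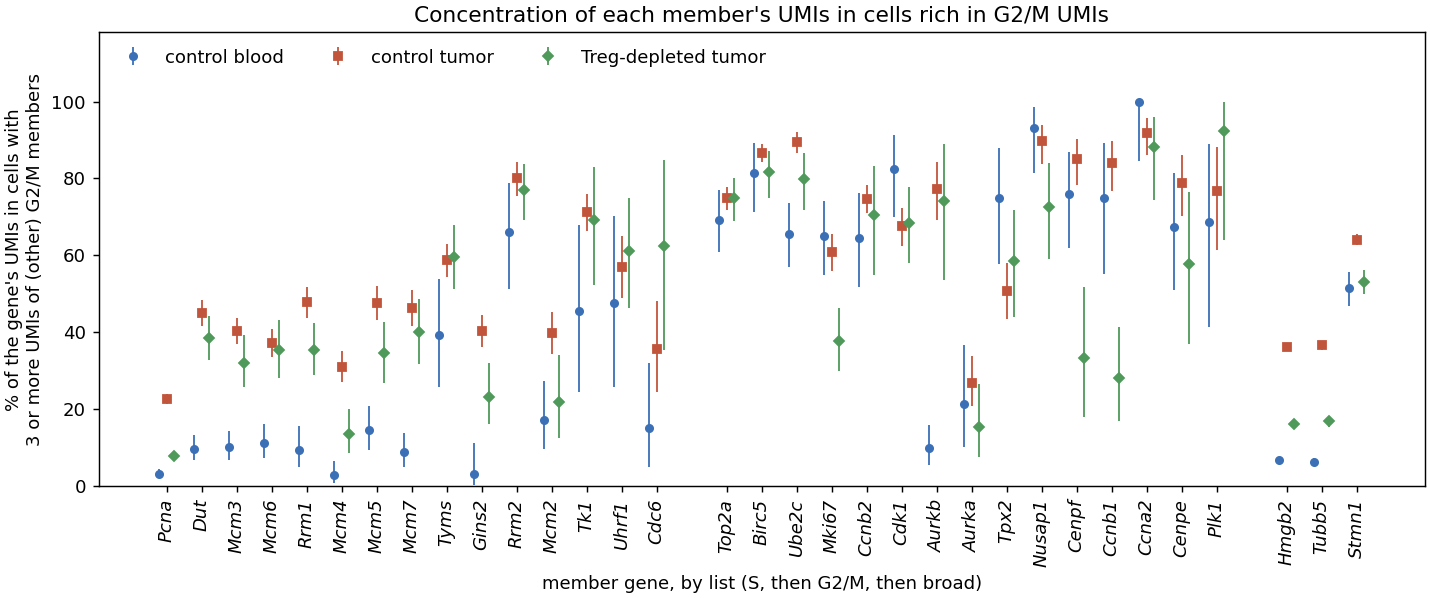
Share of each member's UMIs (in %) found in cells with at least 3 UMIs of G2/M members, the gene itself not counted, in control blood (circles), control tumor (squares) and Treg-depleted tumor (diamonds), with exact 95% binomial intervals. Most G2/M genes lie above 50%, Aurkb in blood (9.87%) and Aurka in all libraries do not, and of the S genes Rrm2 lies highest at 66.0% to 80.2%.

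Cells were also counted after each was thinned to 1000 UMIs, so that depth did not set the share. Cells with at least 2 G2/M UMIs were then 18 of 5550 in blood (0.324%, 0.192 to 0.512), 57 of 4443 in control tumor (1.28%, 0.973 to 1.66) and 39 of 4434 in the Treg-depleted tumor (0.880%, 0.626 to 1.2). The tumor libraries lay above blood, and the intervals of the 2 tumors overlapped. With at least 5 G2/M UMIs required the order did not hold, at 0.0721%, 0.0675% and 0.0226%. These shares rest on very few cells in each library, so they cannot decide the order. Before thinning the shares were 0.865%, 10.4% and 2.55%, which follow depth as well. In neutrophil-gated cells, which should lack these genes, 0 of 207 in blood and 0 of 146 in the Treg-depleted tumor had 2 G2/M UMIs after thinning, which allows shares of up to 1.45% and 2.05% (3 cells of the total); their median depths were 3170 and 1722 UMIs. Cells with at least 2 S UMIs were 1.14% (0.873 to 1.45), 3.17% (2.68 to 3.73) and 2.50% (2.06 to 3.01).

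Of the 57 such G2/M cells in control tumor, 38 were in the macrophage gate, 9 below both gates, 7 in the cDC1 gate and 1 in the classical monocyte gate. Of the 39 in the Treg-depleted tumor, 18 were below both gates, 7 in the classical monocyte gate, 6 in the macrophage gate and 4 in the cDC1 gate. Cells below both gates were 22.0% of all control tumor cells and 48.1% of all Treg-depleted tumor cells. Within the macrophage gate the share was 2.41% (1.71 to 3.29) and 1.47% (0.543 to 3.18), with overlapping intervals at 38 and 6 cells. At least 1 G2/M UMI after thinning gave 9.76% (8.34 to 11.3) and 3.44% (1.89 to 5.70) in this gate, with intervals apart. Within the cDC1 gate the share with at least 2 was 9.86% (4.06 to 19.3) of 71 and 18.2% (5.19 to 40.3) of 22 cells. In blood 9 of the 18 were in the classical monocyte gate, 0.286% (0.131 to 0.543) of it, and 4 in the granulocyte progenitor gate, 6.06% (1.68 to 14.8) of it. Of the G2/M cells, 3 in blood, 14 in the control and 16 in the Treg-depleted tumor also had at least 2 S UMIs, or 16.7%, 24.6% and 41.0%, against 0.996%, 2.48% and 2.02% of cells with no G2/M UMI after thinning.

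Other cycle genes were taken as lists. In control tumor over blood, 14 of 32 other G2/M genes with at least 20 UMIs and 11 of 30 other S genes were at least 2-fold higher, and 1 and 3 were at least 2-fold lower. Among all genes 15% were higher and 22.8% lower, which also stands beside the smaller lists that follow. Cenpa, the centromeric histone, stood at 113 against 15.2 CPM, and Bub1, a spindle checkpoint kinase, at 2.15 against 0.303 CPM, log2 ratios of 2.89 (2.72 to 3.06) and 2.83 (1.64 to 4.31). Of 12 CDK inhibitor and quiescence genes, 3 were at least 2-fold higher and 6 lower. Cdkn1a, which encodes the CDK inhibitor p21, had the largest ratio of all these genes, 1008 against 38.4 CPM. Klf2, a transcription factor of resting leukocytes, stood at 88.6 against 995 CPM. Of 10 genes of the G1 cyclins, their kinases and E2F or Myc factors, 4 were at least 2-fold higher and 2 lower, and the D-type cyclins parted: Ccnd1 stood at 89.6 against 22.2 CPM and Ccnd2 at 137 against 32.4 CPM, but Ccnd3 at 37.5 against 218 CPM. E2f2, an E2F factor, had the smallest ratio of the lists, 3.52 against 45.4 CPM.

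In the Treg-depleted over the control tumor, 10 of 32 other G2/M genes and 3 of 30 other S genes were at least 2-fold lower, and 0 and 2 were at least 2-fold higher. Among all genes 8.63% were lower and 7.63% higher, so the 2-fold S counts lay near the background. Below 0 were 29 of the 32 G2/M and 26 of the 30 S genes. Their median log2 ratios were -0.78 and -0.52, against -0.07 over all genes tested. The smallest ratios were those of Hmmr, a spindle-associated hyaluronan receptor, at 0.619 against 2.64 CPM (-2.09, -3.09 to -1.22), Cdca3 at 3.20 against 11.5 CPM (-1.84, -2.25 to -1.46) and Prim1, a primase subunit, at 1.75 against 5.56 CPM (-1.66, -2.23 to -1.14). Among the higher S genes was Ccne2, a cyclin E, at 2.94 against 0.982 CPM. No gene of the G1 list passed 2-fold either way, and Ccnd2 stood at 135 against 137 CPM. Cdkn1a stood at 898 against 1008 CPM (-0.17, -0.19 to -0.14) and Klf4 at 143 against 77.7 CPM.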

How the data were processed

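The submitters' processing notes name Cell Ranger 1.2 and the mm10 build. The authors deposited raw matrices of whole-number UMI counts for 27998 genes and 737280 barcodes per library. Libraries totalled 22944387, 42493416 and 23291061 UMIs (blood, control, Treg-depleted), of which kept cells held 86.4%, 91.0% and 83.3%. Per the labels' protocols, live CD45+ CD11b+ and/or CD11c+ cells negative for lymphoid, Ly6G and SigF markers were sorted, and 3' ends were sequenced, so that gene length does not enter CPM. Intervals were exact Poisson (CPM), exact conditional (ratios) and Clopper-Pearson (shares); a gene needed 20 UMIs in either library to be counted as 2-fold, and 0 was set to 3 counts. The ratio code was tested on simulated data. A gate needed 3 distinct markers and 20 marker UMIs per 10000 (40 for classical monocytes and macrophages, 100 for neutrophils). Doublets were kept, and removed only as an alternative. Each cell was thinned once, with a fixed seed.

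The members, lists, markers and comparisons were chosen with earlier results of these data known. Full intervals are given for the 6 most abundant S and G2/M members and the 3 broad ones. Of the other cycle lists, the 3 largest and 3 smallest ratios per comparison are named, except 1 gene that is not reported here; further genes named from gates, concentration and the G1 list were chosen after their values were seen. Analyses used Python 3.11.15, numpy 2.4.6, scipy 1.17.1, pandas 2.3.3 and scanpy 1.11.5 (Scrublet).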

Additional observations from a re-analysis of the deposited data

How the results depend on the processing

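The summed lists, their ratios, S over G2/M, counts of 2-fold members, shares of cells, gate values and concentration gave 278 alternative values, of which 219 stayed within the interval, interquartile range or 1.5-fold band of the reported value. Values at a minimum of 2000 UMIs, with a UMI minimum of 10% of the 99th percentile among the top 3000 barcodes and at 5% mitochondrial UMIs all did. Of single-member log2 ratios over all kept cells, none whose interval excluded 0 changed direction. No paired analysis was possible because each group had 1 library. Without the highest Scrublet scores the control tumor G2/M sum was 127 CPM. With 10% ambient RNA subtracted, the classical monocyte gate gave -0.20 (S) and -2.14 (G2/M) in tumor over blood and 0.82 and 1.35 in Treg-depleted over control tumor. The subtraction was not run on shares or concentration. Scaled to a median log2 ratio of 0, tumor over blood gave 1.25 (S) and 1.56 (G2/M), and Treg-depleted over control tumor -0.26 (S). Without Pcna and Top2a, the most abundant members, blood, control and Treg-depleted libraries gave S sums of 92.1, 176 and 96.6 CPM, G2/M sums of 43.7, 102 and 48.6 CPM and S over G2/M of 2.11, 1.72 and 1.99, and the Treg-depleted over control S ratio was -0.86. As a mean of each cell's own CPM, the S sums were 132, 207 and 203 CPM and the G2/M sums 32.6, 76.6 and 45.1 CPM. The gate with 2 times the marker UMIs reversed the classical monocyte G2/M ratio of the 2 tumors to -0.03, and moved its S ratio to 0.35 and the macrophage G2/M ratio to -1.02. The cause was not tested.

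Shares of cells depend on depth and threshold by construction. In the order blood, control, Treg-depleted, cells with at least 2 S UMIs were 7.91%, 34.1% and 17.0% unthinned and 2.73%, 7.66% and 6.67% thinned to 2000 UMIs, and cells with at least 2 G2/M UMIs 0.865%, 10.4% and 2.55% unthinned and 0.623%, 2.78% and 1.29% thinned to 2000. At 1000 UMIs, at least 1 S UMI gave 11.5%, 17.0% and 17.5%, at least 3 gave 0.198%, 0.923% and 0.834%, and at least 5 gave 0.0180%, 0.0900% and 0.158%. At least 1 G2/M UMI gave 2.32%, 5.63% and 2.82%, at least 3 gave 0.518% in the control and 0.271% in the depleted library, and at least 5 gave 0.0721%, 0.0675% and 0.0226%. Leaving out the cell with the most UMIs of the list, chosen after seeing the data, gave G2/M sums of 46.5 CPM in blood and 55.1 CPM after depletion, and a Treg-depleted over control G2/M ratio of -1.12. At median depths of 3550 to 6452 UMIs, most cells have no UMI of a low gene such as Plk1.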
